A study of Mus musculus with 24 samples.

Results

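The set held 45 mouse genes of the TGF-beta, BMP and SMAD pathway: 14 ligands, 10 receptors, 1 decoy receptor, 8 SMADs, 2 SMAD corepressors, 6 secreted antagonists and 4 target genes. They were taken from a list of symbols, each by its brightest probe set with a single gene symbol over all arrays, and each had exactly 1 such probe set. All 45 were measured among 19661 genes, and all 45 were among the 14830 genes kept for testing. Mouse embryonic fibroblasts (MEFs) had been isolated at E13.5 (embryonic age in days) from 3 embryos with 1 intact allele of Eif4e (Eif4e+/-) and 3 wild-type (WT) embryos. Each embryo gave a culture transformed with Ras and Myc and a matched untransformed primary culture, and from each culture the whole cellular RNA and the RNA on heavy polysomes were put on separate arrays. The 8 groups were therefore transformed Eif4e+/-, transformed WT, untransformed Eif4e+/- and untransformed WT cells in both RNA fractions, with 3 cultures each. All cells were of early passage and growing exponentially in 10% serum, and the labels did not say whether a transformed culture was a pool or a clone. Cycloheximide at 100 µg/ml is listed in the labels with every sample. Eif4e encodes the cap-binding protein that recruits ribosomes to mRNA, and polysomes are mRNAs loaded with several ribosomes.

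Ligands of the TGF-beta family bind paired type I and type II receptor kinases on the cell surface. The type I receptor phosphorylates receptor SMADs, Smad2 and Smad3 for TGF-beta and activin or Smad1, Smad5 and Smad9 for BMPs, which join Smad4 and enter the nucleus to regulate transcription. The inhibitory SMADs, corepressors, decoy receptors and secreted antagonists restrain the signal, and in fibroblasts the TGF-beta branch is known for driving matrix and contractile genes.

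Values were log2 RMA intensities. Array means spanned 7.46 to 7.50 for total RNA but 3.78 to 3.79 for polysomal RNA, and levels were therefore compared within a fraction only. Of the 12 polysomal arrays, 3 had a median correlation with the others under 0.9 over the genes kept for testing: transformed Eif4e+/- 3, transformed WT 3 and untransformed WT 1, called the weakly correlated arrays. Over all probe sets the 12 values ran from 0.9003 to 0.9423, and none was under 0.9. Eif4e, the targeted gene, measured 9.10, 8.84 and 9.21 in total RNA of transformed Eif4e+/- cells, against 9.80, 9.67 and 9.40 in transformed WT cells. In untransformed cells it measured 8.69, 8.88 and 8.83 in Eif4e+/-, against 9.21, 9.05 and 9.03 in WT. The groups did not overlap in either state, though the differences of -0.57 (adjusted p = 0.2) and -0.30 (adjusted p = 0.9999) did not pass over all genes. Of 9 fibroblast markers, 5 were lower in transformed cells in total RNA (Thy1, Pdgfrb, Fap, Col1a2 and Col1a1) and 0 were higher. Col3a1, Pdgfra, Dcn and Lum were not called. Lum measured 4.85 to 9.42 in transformed cultures, against 4.74 to 5.79 in untransformed cultures. Dcn measured 6.18 to 10.08, against 8.255 to 9.01, and Pdgfra 7.20 to 10.48, against 8.59 to 9.48. Col3a1 measured 8.59 to 9.59, against 8.98 to 9.63. The summed linear intensity of the 9 markers ran from 1699.8 to 6665 in transformed cultures, against 8899 to 11648 in untransformed cultures. Of the leukocyte markers 2 of 3 tested were lower (Ptprc by -0.73 and Csf1r by -0.54) and 0 higher. Their sum ran from 564 to 2710 in transformed cultures, against 638 to 757 in untransformed cultures, and Cd68, which was not called, measured 8.37 to 11.27 in transformed cultures, against 8.33 to 8.74 in untransformed cultures. Of the endothelium markers Emcn (-2.35) and Kdr (-0.67) were lower and Cdh5 (0.54) higher, with sums of 382 to 541 in transformed cultures, against 541 to 842 in untransformed cultures. Of the neural markers Tubb3 (-2.54) and Nes (-0.35) were lower, with sums of 724 to 1016 in transformed cultures, against 1763 to 2373 in untransformed cultures. Krt18 (1.76) was the epithelium marker that rose, with sums of 881 to 2839 in transformed cultures, against 787 to 972 in untransformed cultures. Fabp4 (1.35) was the adipocyte marker that rose, with sums of 404.5 to 1493 in transformed cultures, against 424 to 549 in untransformed cultures. The muscle marker Des (-0.75) was lower, with sums of 378 to 460.0 in transformed cultures, against 451 to 541 in untransformed cultures. The cartilage marker Col2a1 (-0.35) was lower, with sums of 667 to 843 in transformed cultures, against 809 to 921 in untransformed cultures. Pecam1, Itgam, Epcam, Myog and Adipoq were above the array's 40th percentile on 0 of 12 total RNA arrays, while Cd68, Krt8, Krt18, Sox10, Tubb3, Nes, Myod1, Col2a1, Sox9 and Pparg were above it on all 12, Fabp4 on 10, and Emcn and Ptprc on the 6 of untransformed cells. The markers that were called moved with transformation alongside the results that follow, and the part of any marker's cell type in them was not tested. In cultures measured in bulk, fewer cells of a type and less RNA per cell cannot be told apart.

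Transformation changed 23 of the 45 pathway genes in total RNA: 20 were lower and 3 were higher in transformed cells than in untransformed cells of the same embryos. A gene was called where its limma p, adjusted over all 14830 genes by the Benjamini-Hochberg method with embryo as a block, was under 0.05. Of all genes tested, 30.8% were called, 15.8% lower and 15% higher, against 51.1% of the pathway genes. The median difference of the pathway genes was -0.31 on the log2 scale, and that of all genes was 0.03. Every called pathway gene moved the same way in 6 of 6 embryos, and for 19 of the 23 the transformed and untransformed cultures did not overlap. The calls came from these same values, so both counts partly restate them, and their shares over all genes were not counted. The largest falls were in the ligands Bmp5, Tgfb2 and Tgfb3 and the receptor Bmpr1b, and the ligand Bmp2 had the most positive difference. In polysomal RNA 7 genes were lower and none was higher, and all 7 were among the 20 lower in total RNA. How many of all genes were lower in both fractions was not counted.

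**Figure D1:**
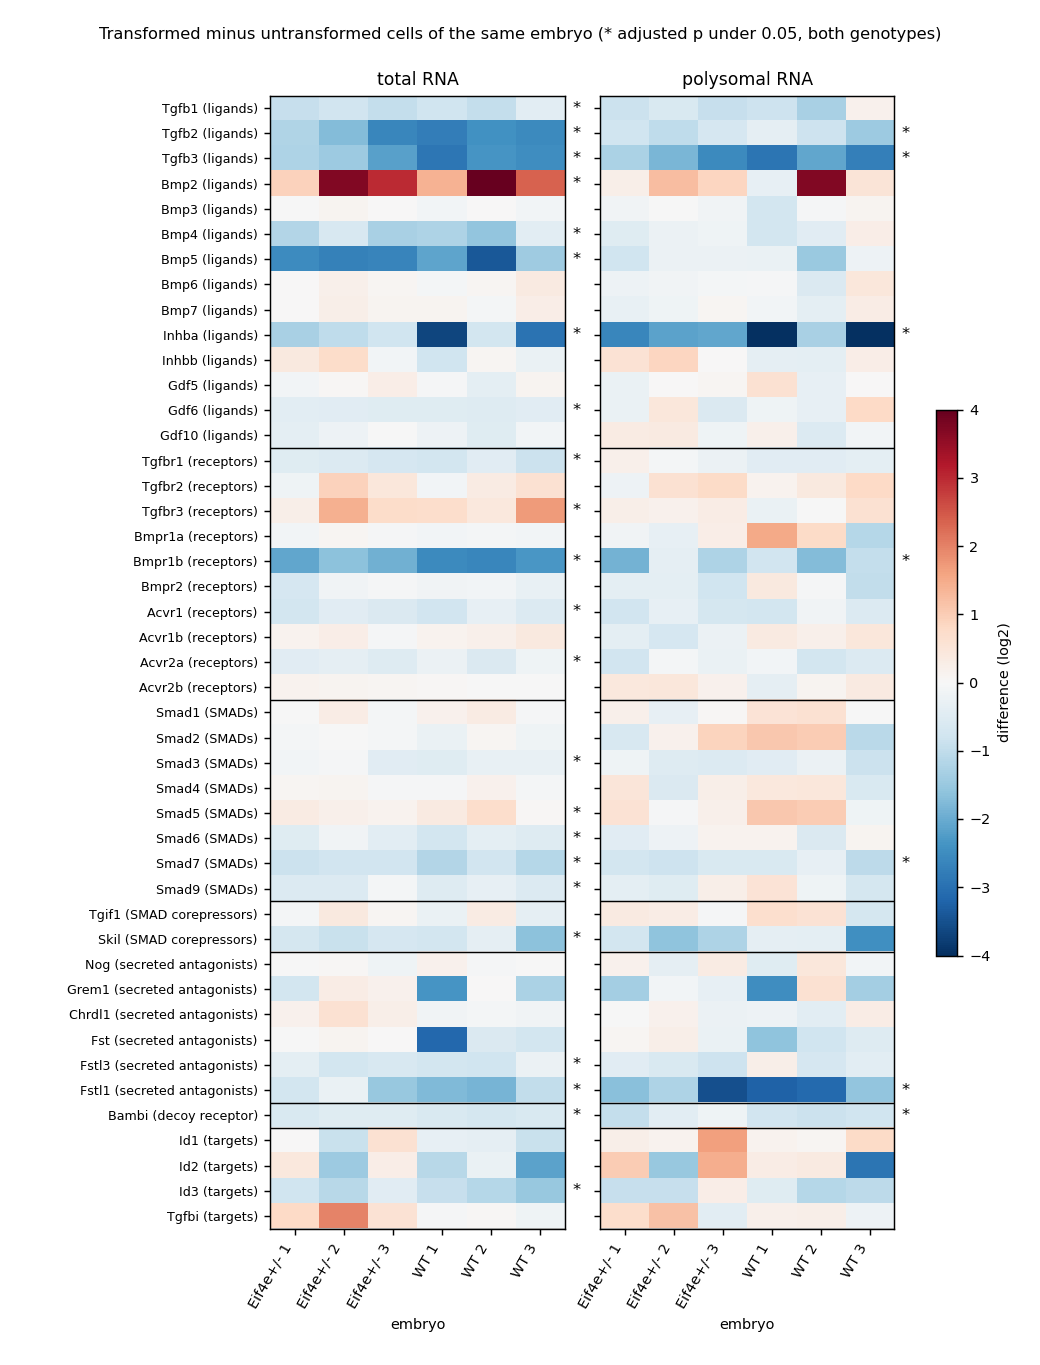
Difference between transformed and untransformed cells of each embryo (log2 scale, colour, with the scale ending at 4 in both directions) for the 45 genes in rows, grouped by role, in total RNA (left) and polysomal RNA (right). Columns are the 3 Eif4e+/- and 3 WT embryos, and a star marks genes called over both genotypes, 23 in total RNA and 7 in polysomal RNA.

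The 7 genes lower in both fractions were Tgfb2, Tgfb3, Inhba, Bmpr1b, Smad7, Fstl1 and Bambi. The 250 bases before the start of 4 of them are given to show the sequence that precedes genes which fell together (RefSeq, build GRCm38.p6, 5′ to 3′ on the gene's strand). Capitals mark matches, on either strand, to CAGACA, a SMAD-binding element, or CACGTG, the E-box that Myc dimers bind. The windows lie at chr1:186705990-186706239 (minus strand) for Tgfb2, chr3:141982265-141982514 (minus) for Bmpr1b, chr13:16011601-16011850 (plus) for Inhba and chr16:37776805-37777054 (plus) for Fstl1.
Tgfb2: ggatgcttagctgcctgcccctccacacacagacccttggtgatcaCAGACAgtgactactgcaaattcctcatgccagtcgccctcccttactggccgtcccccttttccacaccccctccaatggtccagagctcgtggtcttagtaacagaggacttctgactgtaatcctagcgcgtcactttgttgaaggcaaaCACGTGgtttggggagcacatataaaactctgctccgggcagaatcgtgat
Bmpr1b: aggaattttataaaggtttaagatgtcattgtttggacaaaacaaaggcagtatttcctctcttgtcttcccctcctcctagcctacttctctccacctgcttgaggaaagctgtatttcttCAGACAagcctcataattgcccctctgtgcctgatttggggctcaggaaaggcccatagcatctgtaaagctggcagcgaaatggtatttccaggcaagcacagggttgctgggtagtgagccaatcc
Inhba: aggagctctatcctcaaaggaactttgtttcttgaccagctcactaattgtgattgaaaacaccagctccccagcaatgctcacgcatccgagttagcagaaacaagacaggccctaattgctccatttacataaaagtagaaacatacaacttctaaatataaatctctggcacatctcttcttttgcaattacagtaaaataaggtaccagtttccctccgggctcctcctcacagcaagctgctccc
Fstl1: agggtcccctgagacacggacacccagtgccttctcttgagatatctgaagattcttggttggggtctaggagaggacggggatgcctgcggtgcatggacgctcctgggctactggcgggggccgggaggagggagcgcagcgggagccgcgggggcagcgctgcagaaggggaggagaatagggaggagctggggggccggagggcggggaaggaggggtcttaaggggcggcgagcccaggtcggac
In Tgfb2, CAGACA begins at position -204 and CACGTG at position -51, counted back from the start. In Bmpr1b, CAGACA begins at position -128, and the other annotated windows of that gene hold none of the motifs. The Inhba and Fstl1 windows hold no match to these motifs, nor to GGCGCC, a GC-rich element bound by BMP SMADs, or TGANTCA, the AP-1 element. The promoter table matched 29 of the 45 genes with 38 promoters. CAGACA stood in 7 of those 38 (18.42%), against 17.13% of 32851 promoters, and GGCGCC in 8 (21.05%), against 9.59%. CACGTG stood in 4 (10.53%), against 6.02%, and TGANTCA in 0, against 6.75%. A match describes the letters of the window and does not show binding.

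Among the 14 ligands, 7 were lower and 1 was higher in total RNA of transformed cells, against 15.8% and 15% of all genes. All 3 TGF-beta ligands fell. Tgfb2 measured 6.93 to 8.51 (median 7.51) in transformed cultures, against 9.56 to 10.22 (median 9.71) in untransformed cultures. The difference was -2.22 ± 0.17 (SE, n = 6 embryos; adjusted p = 0.000355), or 21.5% of the untransformed level. Every transformed culture lay more than a log2 unit below every untransformed one. Tgfb3 measured 7.80 to 9.54 (median 8.55) in transformed cultures, against 10.52 to 11.06 (median 10.70) in untransformed cultures, a difference of -2.10 ± 0.13 (adjusted p = 0.000238). These groups did not overlap either. Tgfb1, the most widely expressed of the TGF-beta ligands, measured 7.12 to 8.16 (median 7.56) in transformed cultures, against 8.07 to 8.57 (median 8.38) in untransformed cultures. Its difference of -0.80 ± 0.08 (adjusted p = 0.00083) left 57.5% of the untransformed level, and the groups overlapped through transformed WT 3 and untransformed WT 2.

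The BMP ligands moved in both directions. Bmp5 measured 5.96 to 7.35 (median 6.05) in transformed cultures, against 8.13 to 9.36 (median 8.77) in untransformed cultures, a difference of -2.47 ± 0.23 (adjusted p = 0.00065). The groups did not overlap, and only transformed WT 3 lay above its array's 40th percentile among the transformed cultures, against all 6 untransformed cultures. Bmp4, a ligand that patterns mesoderm and limb, measured 6.70 to 7.37 (median 6.90) in transformed cultures, against 7.67 to 8.46 (median 8.06) in untransformed cultures. Its difference was -1.05 ± 0.16 (adjusted p = 0.00365), with no overlap, and 3 of the 6 transformed cultures were above their array's 40th percentile. Bmp2, an inducer of bone, went the other way: 7.15 to 11.21 (median 8.98) in transformed cultures, against 6.09 to 6.94 (median 6.29) in untransformed cultures. The difference was 2.64 ± 0.48 (adjusted p = 0.00704), and every transformed culture exceeded every untransformed one. The rise was uneven between cultures, since the transformed Eif4e+/- values were 7.15, 10.63 and 9.29 and the transformed WT values were 7.46, 11.21 and 8.66. Of the untransformed cultures, 1 of 6 lay above its array's 40th percentile for Bmp2, so no fold is given for it. Bmp3, Bmp6 and Bmp7 were not called.

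Inhba encodes the subunit of activin A, the ligand that signals through Smad2 and Smad3. It measured 8.68 to 11.31 (median 11.08) in transformed cultures, against 12.003 to 12.47 (median 12.29) in untransformed cultures, a difference of -1.75 ± 0.35 (adjusted p = 0.00999). The groups did not overlap, and the lowest values were transformed WT 1 at 8.68 and transformed WT 3 at 9.52. Gdf6, a BMP-type ligand of joint formation, differed by -0.47 ± 0.05 (adjusted p = 0.000764), at 6.40 to 6.71 in transformed cultures, against 6.87 to 7.20 in untransformed cultures. No transformed culture lay above its array's 40th percentile for Gdf6. The remaining ligands Inhbb, Gdf5 and Gdf10 were not called.

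**Figure D2:**
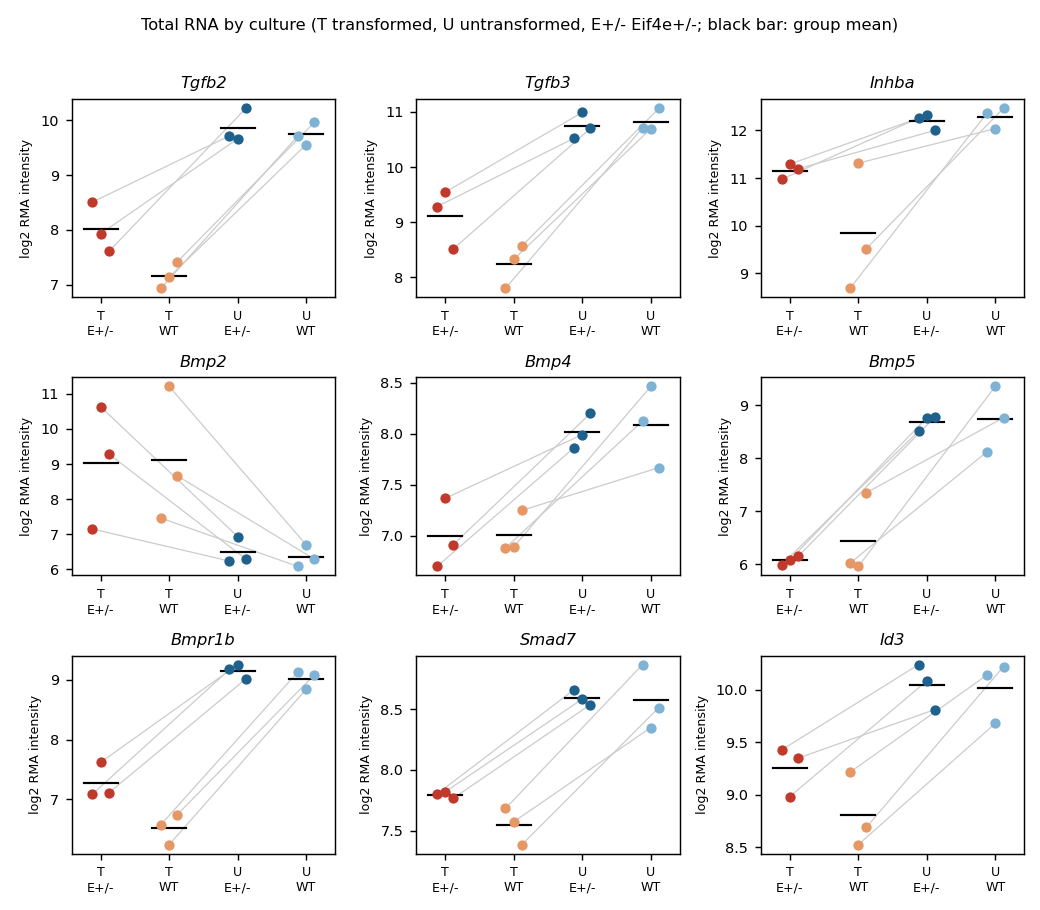
Log2 RMA intensity in total RNA (vertical axes, scaled per gene) of 9 pathway genes in the 12 cultures, with transformed cells left of untransformed cells and grey lines joining cultures of the same embryo. Bmp2 is higher in every transformed culture than in any untransformed culture, and the other 8 genes are lower.

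Of the 10 receptors, 4 were lower and 1 was higher, against 15.8% and 15% of all genes. Bmpr1b, a type I BMP receptor, had the most marked fall of them, at 6.24 to 7.62 (median 6.92) in transformed cultures, against 8.84 to 9.25 (median 9.11) in untransformed cultures. The difference was -2.19 ± 0.07 (adjusted p = 1.94e-05), with no overlap, and 3 of the 6 transformed cultures were above their array's 40th percentile. Its relative Bmpr1a, in contrast, was nearly level, at 10.66 to 10.88 in transformed cultures and 10.77 to 10.85 in untransformed cultures, and was not called. Tgfbr1, the type I TGF-beta receptor, measured 8.23 to 8.72 (median 8.47) in transformed cultures, against 8.80 to 9.26 (median 9.13) in untransformed cultures, a difference of -0.62 ± 0.07 (adjusted p = 0.00109). Acvr1, a type I receptor for BMPs and activin, differed by -0.57 ± 0.07 (adjusted p = 0.00209), and Acvr2a, a type II activin receptor, by -0.38 ± 0.07 (adjusted p = 0.00679). The groups did not overlap for any of these. Tgfbr3, the co-receptor betaglycan that presents TGF-beta2, was the receptor that rose: 8.35 to 9.64 (median 8.93) in transformed cultures, against 7.95 to 8.59 (median 8.12) in untransformed cultures. Its difference of 0.87 ± 0.20 (adjusted p = 0.0188), or 1.82-fold, came with overlapping groups, and the call was lost without Eif4e+/- embryo 3 (adjusted p = 0.0603). The type II receptors Tgfbr2, Bmpr2 and Acvr2b and the type I receptor Acvr1b were not called. Bambi, a decoy receptor without a kinase domain that blocks TGF-beta and BMP receptors, measured 7.64 to 7.99 (median 7.89) in transformed cultures, against 8.34 to 8.60 (median 8.44) in untransformed cultures. The difference was -0.59 ± 0.05 (adjusted p = 0.000472), and the groups did not overlap.

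Among the 8 SMADs, both inhibitory ones, Smad6 and Smad7, were lower, and of the 6 others Smad3 and Smad9 were lower, Smad5 was higher and 3 were not called. Of all genes, 15.8% were lower and 15% higher. Smad7, which blocks TGF-beta receptors and is itself induced by the signal, measured 7.38 to 7.82 (median 7.72) in transformed cultures, against 8.35 to 8.87 (median 8.56) in untransformed cultures. The difference was -0.91 ± 0.07 (adjusted p = 0.000333), or 53.1% of the untransformed level. Smad6, the inhibitor of the BMP branch, measured 6.68 to 7.24 in transformed cultures, against 7.29 to 7.53 in untransformed cultures, a difference of -0.45 ± 0.07 (adjusted p = 0.00436). Neither gene showed overlap between the states. Smad9, a BMP SMAD, differed by -0.42 ± 0.08 (adjusted p = 0.00806) without overlap. Smad3, which carries TGF-beta and activin signals, differed by -0.28 ± 0.07 (adjusted p = 0.0233), and the BMP effector Smad5 by 0.30 ± 0.09 (adjusted p = 0.0388), both with overlapping groups. The Smad3 call was lost without WT embryo 1, Eif4e+/- embryo 3 or Eif4e+/- embryo 1 (adjusted p = 0.077, 0.0612 and 0.052), and the Smad5 call without any single embryo but WT 3 (0.0804 to 0.122). Smad1, Smad2 and the shared partner Smad4 were not called. Of the corepressors, Skil (SnoN), a SMAD repressor that the pathway itself induces, measured 8.13 to 9.03 (median 8.82) in transformed cultures, against 9.37 to 9.76 (median 9.59) in untransformed cultures. It differed by -0.82 ± 0.15 (adjusted p = 0.00806) with no overlap, and Tgif1, a homeodomain corepressor, was not called.

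Of the 6 secreted antagonists 2 fell, against 15.8% of all genes, and both were of the follistatin family. Fstl1, a secreted glycoprotein that binds BMPs, measured 10.28 to 11.80 (median 10.90) in transformed cultures, against 11.99 to 12.26 (median 12.10) in untransformed cultures. The difference was -1.19 ± 0.18 (adjusted p = 0.0037), or 44.0% of the untransformed level. Fstl3, which traps activin, differed by -0.59 ± 0.09 (adjusted p = 0.00398), and neither gene overlapped between states. Follistatin itself (Fst) and the BMP antagonist Grem1 were not called, and their transformed cultures ranged widely. Fst measured 7.95 to 10.60 in transformed cultures, against 9.93 to 11.10 in untransformed cultures, and Grem1 measured 8.67 to 11.55, against 10.67 to 11.52. Transformed WT 1 was the lowest value in both. Nog and Chrdl1, further BMP antagonists, were not called, and Chrdl1 lay below the 40th percentile on every total RNA array.

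Of the 4 target genes 1 was called, against 30.8% of all genes. Id3, an inhibitor of differentiation induced by BMPs, measured 8.52 to 9.43 (median 9.10) in transformed cultures, against 9.68 to 10.24 (median 10.11) in untransformed cultures. It fell by 1.00 ± 0.11 on the log2 scale (adjusted p = 0.0011), to 50.1% of the untransformed level, and the groups did not overlap. Its relatives Id1 (-0.31, adjusted p = 0.25) and Id2 (-0.71, adjusted p = 0.13) were not called. Tgfbi, a matrix protein named for its induction by TGF-beta, differed by 0.54 (adjusted p = 0.057) over both genotypes, the highest value among the 22 genes not called, and Fst by -0.72 was the lowest.

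Within the genotypes, 15 pathway genes were called in Eif4e+/- cells (1 higher and 14 lower, against 5.68% and 8.58% of all genes) and 19 in WT cells (1 higher and 18 lower, against 7.62% and 9.08%). Of these, 13 were called in both: Tgfb1, Tgfb2, Tgfb3, Bmp4, Bmp5, Gdf6, Tgfbr1, Bmpr1b, Acvr1, Bambi, Smad7, Fstl3 and Id3. The share of all genes called in both genotypes was not counted. The higher gene was Tgfbi in Eif4e+/- cells (1.13, adjusted p = 0.0286) and Bmp2 in WT cells (2.75, adjusted p = 0.036). In the other genotype Tgfbi differed by -0.05 (WT) and Bmp2 by 2.53 (Eif4e+/-, adjusted p = 0.0515). The count in Eif4e+/- cells was 5 without Eif4e+/- embryo 3 and 8 without Eif4e+/- embryo 1, and the count in WT cells was 10 without WT embryo 1. How many of all genes were called in those runs is not given here.

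In polysomal RNA, 7 of the 45 genes were lower in transformed cells and 0 were higher, against 4.05% and 3.67% of all genes. Inhba had the most pronounced difference, at 3.58 to 6.32 (median 5.71) in transformed cultures, against 7.60 to 8.32 (median 7.91) in untransformed cultures. It was -2.76 ± 0.37 (adjusted p = 0.0058), leaving 14.8% of the untransformed level. Fstl1 measured 6.07 to 8.01 (median 6.62) in transformed cultures, against 8.35 to 9.58 (median 9.32) in untransformed cultures, a difference of -2.39 ± 0.33 (adjusted p = 0.00641), or 19.1%. For both genes the groups did not overlap. Tgfb3 measured 3.58 to 5.23 (median 4.34) in transformed cultures, against 6.49 to 6.76 (median 6.62) in untransformed cultures, a difference of -2.22 ± 0.19 (adjusted p = 0.00115), or 21.4%. These 3 secreted factors kept their call in every alternative run.

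The other 4 genes differed less. Bmpr1b differed by -1.16 ± 0.22 (adjusted p = 0.0192), Tgfb2 by -0.86 ± 0.16 (adjusted p = 0.0188), Smad7 by -0.70 ± 0.14 (adjusted p = 0.021) and Bambi by -0.66 ± 0.14 (adjusted p = 0.0279). Each was lower in 6 of 6 embryos without overlap between the groups. The transformed cultures of Tgfb2 (2.91 to 3.56) and Bmpr1b (3.01 to 3.73) lay near the 40th percentiles of the polysomal arrays, which were between 3.13 and 3.32. Each of the 4 lost its call without some single embryos: Tgfb2 without WT 2, Eif4e+/- 3, 2 or 1, and Bmpr1b without WT 2, Eif4e+/- 3 or 1. Smad7 lost it without WT 1, Eif4e+/- 3, 2 or 1 and without the 3 weakly correlated arrays (adjusted p = 0.11), and Bambi without any single embryo but WT 3. The count of 7 became 3 without Eif4e+/- embryo 3 or 1, 4 without Eif4e+/- embryo 2, 16 without WT embryo 3, and 11 without the embryo block. Counts of all genes in the same runs are not given here. The nearest genes that were not called were Skil (-1.13, adjusted p = 0.0507), Acvr1 (-0.54, adjusted p = 0.051), Tgfb1 (-0.73, adjusted p = 0.061) and Id3 (-0.71, adjusted p = 0.065). Within Eif4e+/- cells Tgfb3 was called, and within WT cells Tgfb3, Inhba and Fstl1 were (1.31% and 0.904% of all genes were lower). The WT count was 8 without WT embryo 3, 1 without Eif4e+/- embryo 2 or 1 and 0 without WT embryo 1. The Eif4e+/- count was 8 without WT embryo 3, 2 without WT embryo 2, 0 without any single Eif4e+/- embryo and 4 without the weakly correlated arrays.

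**Figure D3:**
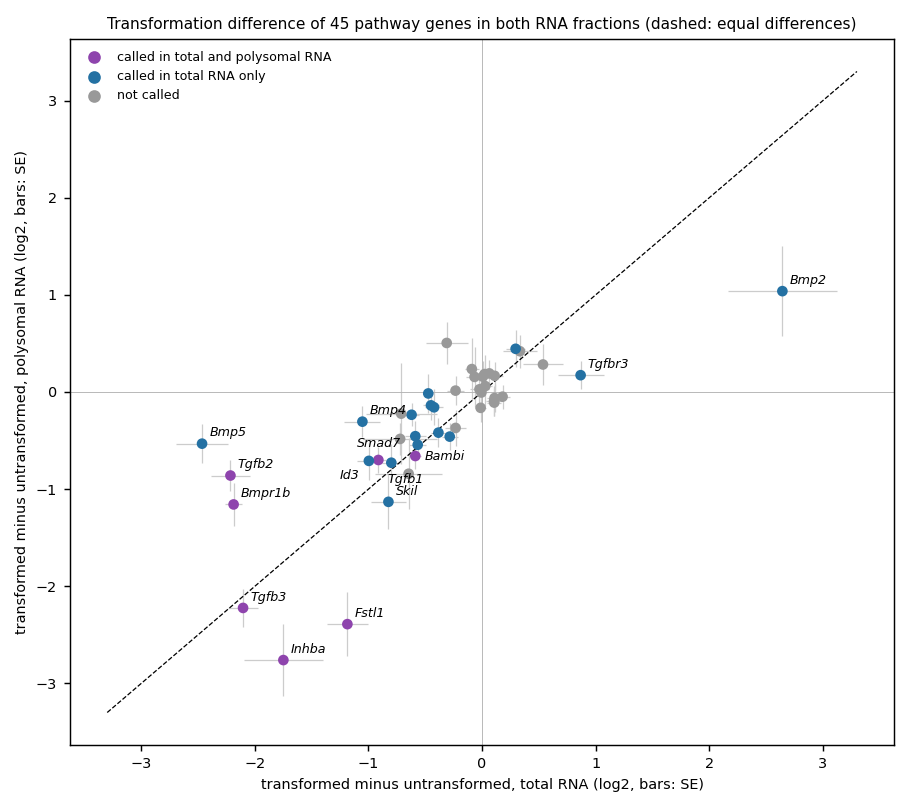
Transformed minus untransformed difference over both genotypes in total RNA (horizontal axis) and in polysomal RNA (vertical axis), both on the log2 scale with standard errors, one point per pathway gene. Inhba and Fstl1 lie below the dashed line of equal differences, while Bmp5, Tgfb2, Bmpr1b and Bmp4 lie above it and Bmp2, higher in total RNA, lies below it.

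Translational efficiency (TE) was taken as the series description gives it, log2 polysomal minus log2 total intensity of the same culture. Because the array means differed between the fractions, a TE value has no absolute meaning, and only its differences between cultures were read. TE also holds the total RNA value with a negative sign, so a gene near background in polysomal RNA gains TE whenever its total RNA falls. Transformation changed TE of 7 pathway genes, 4 higher and 3 lower, against 1.81% and 0.971% of all genes.

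The 3 lower genes were Inhba, Fstl1 and Bmp2. Inhba TE was -5.94 to -4.89 (median -5.29) in transformed cultures, against -4.63 to -3.94 (median -4.30) in untransformed cultures, a difference of -1.01 ± 0.15 (adjusted p = 0.0125) with no overlap. Fstl1 TE was -4.58 to -3.69 (median -4.03) in transformed cultures, against -3.78 to -2.57 (median -2.72) in untransformed cultures, a difference of -1.20 ± 0.19 (adjusted p = 0.0147). The Fstl1 groups overlapped through untransformed WT 3, and both genes lay above the 40th percentile on all 12 polysomal arrays. Their polysomal RNA thus differed by more than their total RNA did. Bmp2 TE was -6.52 to -4.50 (median -5.42) in transformed cultures, against -4.44 to -3.01 (median -3.84) in untransformed cultures, a difference of -1.61 ± 0.25 (adjusted p = 0.0129). Only 3 transformed and 0 untransformed cultures exceeded the 40th percentile in polysomal RNA for Bmp2, and the most extreme was transformed WT 2 at 5.97.

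The 4 higher genes were Bmp5 (1.93 ± 0.17, adjusted p = 0.000819), Tgfb2 (1.36 ± 0.24, adjusted p = 0.0212), Bmpr1b (1.03 ± 0.19, adjusted p = 0.024) and Bmp4 (0.75 ± 0.16, adjusted p = 0.041). All 4 had lower total RNA in transformed cells. In polysomal RNA Bmp5 exceeded the 40th percentile in 0 transformed and 2 untransformed cultures, Bmpr1b in 2 and 6, and Tgfb2 in 3 and 6. Bmp4 exceeded it in all 12, at 3.19 to 3.67 in transformed cultures and 3.41 to 3.96 in untransformed cultures. The transformed cultures lay only 0.03 to 0.42 above it for Bmp4. The differences in polysomal RNA and in total RNA were -0.53 and -2.47 for Bmp5, -0.86 and -2.22 for Tgfb2, -1.16 and -2.19 for Bmpr1b, and -0.31 and -1.05 for Bmp4. Bmp5 was the only one of the 7 TE calls to hold without the 3 polysomal arrays whose median correlation over the kept genes was under 0.9, where the others had adjusted p from 0.0559 (Fstl1) to 0.268 (Bmpr1b). The count of 7 became 1 without Eif4e+/- embryo 3 or 2 and 4 without WT embryo 2 or 1, with no count of all genes in those runs given here. Within each genotype 1 gene, Bmp5, was called for TE, with higher TE in transformed cells, as had 0.202% of all genes in Eif4e+/- cells and 0.506% in WT cells. The WT count was 5 without WT embryo 3 and 0 without any other single embryo. The Eif4e+/- count was 4 without WT embryo 3 and 0 without any single Eif4e+/- embryo.

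**Figure D4:**
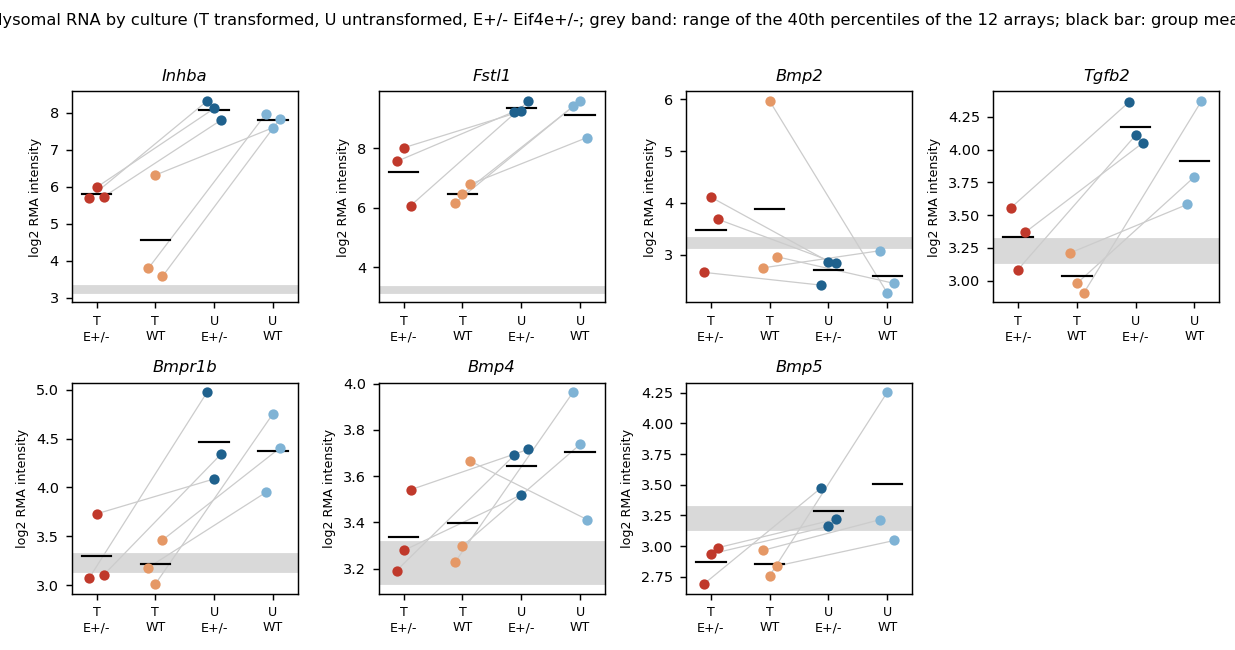
Log2 RMA intensity in polysomal RNA (vertical axes, scaled per gene) of the 7 genes with a TE call in the 12 cultures, with grey lines joining cultures of the same embryo and a grey band for the 40th percentiles of the arrays (3.13 to 3.32). Inhba and Fstl1 stand above the band in every culture, and Bmp5, Tgfb2, Bmpr1b, Bmp4 and Bmp2 have transformed cultures in, below or close to it.

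Eif4e heterozygosity changed no pathway gene past the threshold in limma in either state. In total RNA of transformed cells 0 of 45 were called, against 0.0472% of all genes (7 genes), and 11 of 45 had an unadjusted p under 0.05, against 9.3% of all genes. The 3 smallest p values belonged to Bmpr1b, Tgfbr1 and Tgfb2. Bmpr1b measured 7.09, 7.62 and 7.11 in transformed Eif4e+/- cells, against 6.58, 6.24 and 6.75 in transformed WT cells, a difference of 0.75 ± 0.16 (adjusted p = 0.212). Tgfbr1 measured 8.70, 8.72 and 8.60 in transformed Eif4e+/- cells, against 8.33, 8.34 and 8.23 in transformed WT cells, a difference of 0.37 ± 0.08 (adjusted p = 0.238). Tgfb2 measured 8.51, 7.93 and 7.61 in transformed Eif4e+/- cells, against 6.93, 7.14 and 7.42 in transformed WT cells, a difference of 0.85 ± 0.23 (adjusted p = 0.311). The Eif4e+/- values were higher without overlap in all 3 genes, and none passed. In all, 8 genes were higher in transformed Eif4e+/- cells without overlap, against 5.81% of all genes (Tgfb2, Tgfbr1, Bmpr1b, Smad6, Smad7, Chrdl1, Fst and Tgfbi), and 0 were lower without overlap, against 4.44%. Differences of the 45 genes ran from -0.37 (Bmp5) to 1.32 (Inhba), 29 were positive, and their median was 0.08, against 0.01 over all genes. The share of all genes with a positive difference was not counted. Without WT embryo 2, 1 of 45 was called.

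In untransformed cells the genotypes were closer. In total RNA 0 of 45 genes were called, as were 0 of all genes, and 1 of 45 had an unadjusted p under 0.05, against 2.37% of all genes. Tgfbr1 (0.25), Smad5 (0.15) and Gdf5 (-0.14) had the smallest p values, all with adjusted p = 0.9999. Tgfbr1 and Smad4 were higher in Eif4e+/- cells without overlap, against 5.01% of all genes, and Bmp6 and Tgfbr2 were lower without overlap, against 5.87%. Differences ran from -0.33 (Grem1) to 0.25 (Tgfbr1).

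**Figure D5:**
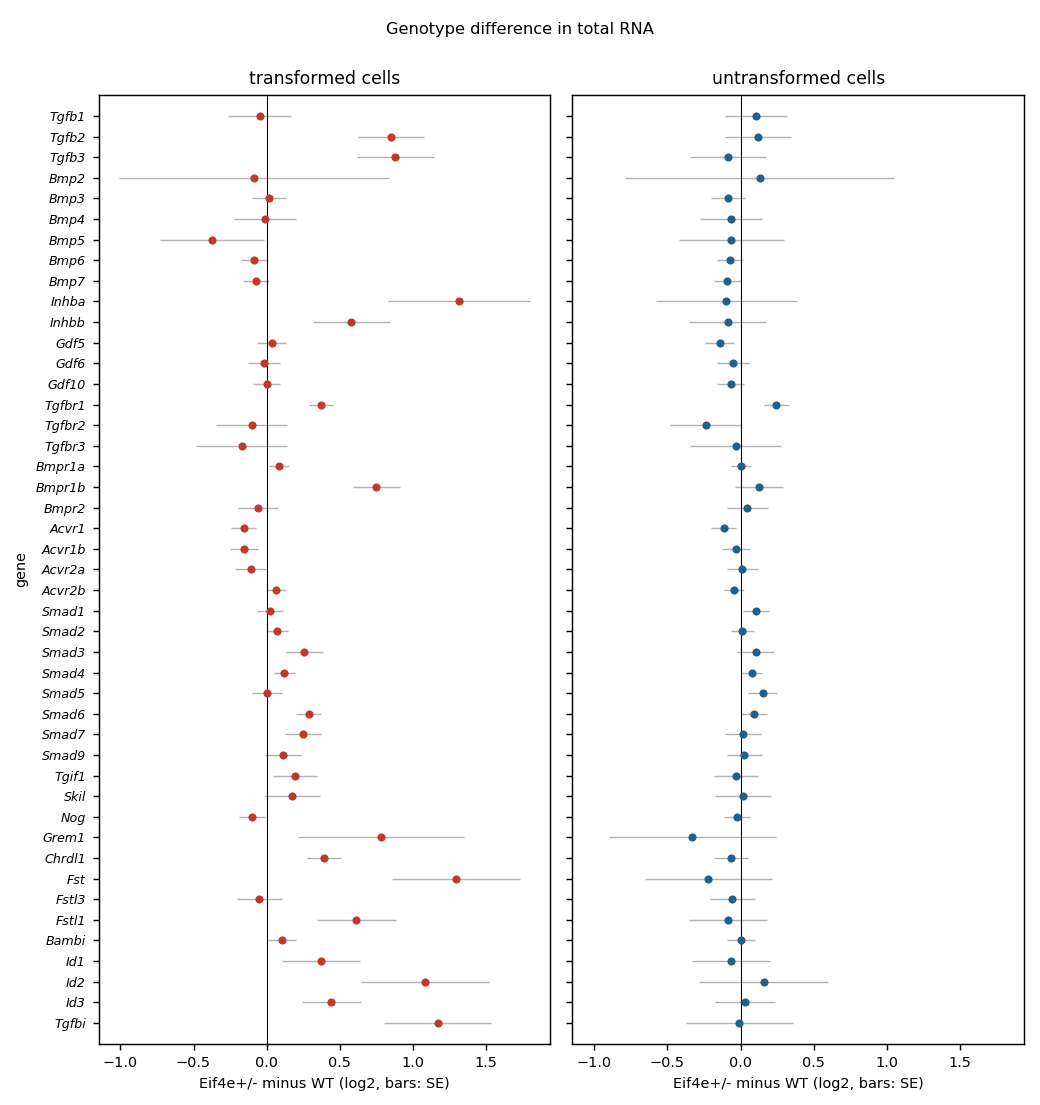
Eif4e+/- minus WT difference in total RNA (log2 scale, horizontal axes) with its standard error for each of the 45 genes, in transformed cells (left) and untransformed cells (right). No difference passed the threshold, and the differences spread from -0.37 to 1.32 in transformed cells and from -0.33 to 0.25 in untransformed cells.

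Polysomal RNA and TE gave no genotype call in limma either. In polysomal RNA of transformed cells 3 of 45 genes had an unadjusted p under 0.05, against 3.22% of all genes: Tgfb3 (0.74), Acvr1b (-0.50) and Inhba (1.24), each with adjusted p = 0.9999. Acvr2b was higher and Acvr1b lower without overlap, against 4.14% and 4.37% of all genes. Inhba measured 5.70, 5.99 and 5.73 in transformed Eif4e+/- cells, against 3.79, 6.32 and 3.58 in transformed WT cells. The WT cultures thus spanned the Eif4e+/- values, and without WT embryo 2 the Inhba difference was 2.12 (adjusted p = 0.011). In untransformed cells 0 of 45 had an unadjusted p under 0.05, against 1.67%, and Smad1 (0.39), Tgfbr3 (-0.31) and Smad7 (0.28) had the smallest. Bmpr1a, a type I BMP receptor, was the 1 gene higher without overlap there, against 2.37%, and 0 were lower, against 3.37%. For TE, 2 of 45 in transformed cells (2.9% of all genes) and 0 in untransformed cells (1.45%) had an unadjusted p under 0.05. The smallest were for Bmpr1b (-0.66), Tgfbi (-0.57) and Chrdl1 (-0.40) in transformed cells and for Gdf5 (0.35), Inhba (0.37) and Grem1 (0.35) in untransformed cells. In transformed cells TE of Acvr2b was higher without overlap, against 3.82% of all genes, and that of Inhbb, Bmpr1b and Chrdl1 was lower, against 4.48%. In untransformed cells TE of Inhba, Gdf5 and Grem1 was higher without overlap, against 2.89%, and 0 genes were lower, against 2.69%.

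Whether transformation acted differently in the genotypes was tested in limma as an interaction, the Eif4e+/- difference minus the WT difference. In total RNA 0 of 45 genes passed, as did 0 of all genes, and 4 of 45 had an unadjusted p under 0.05, against 4.88%. The smallest p values were for Bmpr1b (0.62), Tgfb3 (0.97) and Tgfbi (1.18), each with adjusted p = 0.9164. Bmpr1b differed between states by -1.88 in Eif4e+/- cells and -2.50 in WT cells, Tgfb3 by -1.62 and -2.59, and Tgfbi by 1.13 and -0.05. The 3 embryos of 1 genotype all moved opposite to the 3 of the other in 1 of 45 genes in total RNA, 1 in polysomal RNA and 0 for TE, against 2.14%, 1.44% and 1.43% of all genes. In total RNA the interaction was positive for 33 of the 45 genes, with a median of 0.10, against 0.01 over all genes. The share of all genes with a positive interaction was not counted. In polysomal RNA 0 passed and 2 of 45 had an unadjusted p under 0.05, against 2.12%, with Acvr1b (-0.77), Fst (0.98) and Inhbb (0.65) at the smallest p values. For TE 0 passed and 1 of 45 had an unadjusted p under 0.05, against 1.95%, led by Tgfbi (-0.76), Acvr1b (-0.65) and Grem1 (-0.64).

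Other genes of the pathway were read from lists chosen by function, and the same fit over all genes gave their calls for transformation over both genotypes in total RNA. Of 24 TGF-beta target genes tested, 18 were lower and 2 higher, against 15.8% and 15% of all genes, with a median of -1.10, against 0.03 over all genes. The 4 most negative were the matrix protein Postn (-3.99 ± 0.54, adjusted p = 0.00237), the contractile genes Cnn1 (-3.62 ± 0.19, adjusted p = 0.00012) and Tagln (-3.23 ± 0.21, adjusted p = 0.000254), and the metalloproteinase inhibitor Timp3 (-3.29 ± 0.24, adjusted p = 0.000325). The cell cycle inhibitor Cdkn2b (0.34) and the secreted factor Angptl4 (0.79) were the 2 higher. Of 16 genes for storing and activating latent TGF-beta, 9 were lower and 1 higher (median -0.65). The protease Tll1 (-5.22), the latent binding protein Ltbp2 (-1.96), the activator Thbs1 (-1.77) and the surface anchor Lrrc32 (-1.24) led the falls, and the microfibril gene Fbn2 (0.97) was the one that rose. Of 12 BMP target genes, 5 were lower and 0 higher (median -0.17), among them Id4 (-1.29), Dlx5 (-0.88), Hey1 (-0.64) and Gata3 (-0.47). The target and latent lists include matrix and contractile genes that fibroblasts express strongly, and Col1a1 and Col1a2 are also among the 5 fibroblast markers that fell.

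The lists that follow stand against the same 15.8% lower and 15% higher of all genes. Of 24 intracellular SMAD regulators 8 were lower and 5 higher (median -0.08). Tgfb1i1 (Hic-5, -2.34), Pmepa1 (-1.45) and Ldlrad4 (-1.26), of which the last 2 block SMAD phosphorylation, had the largest falls, and the antiproliferative Tob1 rose (1.03). Of 13 further secreted antagonists and modulators, 4 fell and 0 rose: Bmper (-1.97), Crim1 (-1.51), Bgn (-1.40) and Nbl1 (-0.95). Of 9 further receptors and co-receptors, the BMP co-receptor Rgmb (0.54) and its partner Neo1 (0.51) rose and Acvrl1 (-0.26) fell, counts near those shares. Of 9 further ligands, Bmp8b rose (0.35) and Lefty1 fell (-0.21), also near them.

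In polysomal RNA 18 of the 24 TGF-beta target genes were lower and 1 was higher, with a median of -1.72, and 7 of the 16 latent TGF-beta genes were lower, against 4.05% lower and 3.67% higher of all genes. Thbs1, which releases TGF-beta from its latent complex, differed by -4.21 ± 0.32 (adjusted p = 0.000856) in polysomal RNA and by -1.77 ± 0.20 (adjusted p = 0.00139) in total RNA, and its TE by -2.44 ± 0.21 (adjusted p = 0.000809). TE was lower for 5 of the 24 target genes and higher for 0, against 0.971% and 1.81% of all genes: Acta2 (-1.72), Lox (-1.26), Ccn1 (-0.99), Tnc (-0.87) and Cnn1 (-0.74). Of the latent TGF-beta genes, Thbs1 and Itgav (-1.01) had lower TE and Tll1 (1.57) higher TE.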

How the data were processed

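The 24 arrays were of the Affymetrix design Mouse Gene 1.0 ST. Cells for polysomal RNA were treated with cycloheximide at 100 µg/ml and their cytoplasm was separated on a 10 to 50% sucrose gradient to collect heavy polysomes, per the labels' protocols. These settings are listed with every sample, total RNA included. The deposited values are log2 intensities that the authors made with RMA, per the submitters' processing notes and the series description. Which RMA version and chip definition were used, and whether the fractions were normalized apart are not given in the sources used here, and no file used here holds a detection call. Precision was limited by the 3 arrays per group.

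Of 25668 probe sets, 20777 carried 1 gene symbol, 232 several and 4659 none in the platform annotation, and the last 2 classes were not used. They covered 19661 genes, 564 of them through several probe sets, in which case the brightest was taken. A gene was kept when 3 or more of the 24 arrays had it above their own 40th percentile (14830 genes). limma 3.58.1 in R 4.3.3 (lmFit and eBayes) was fitted to all 14830 genes for total RNA, polysomal RNA and TE, with Benjamini-Hochberg adjustment. Transformation and interaction used embryo as a block, since the labels match both states by embryo. Deviations from the group means of the same embryo correlated at 0.045 to 0.219 (Eif4e+/-) and -0.058 to 0.125 (WT) in total RNA. In polysomal RNA they correlated at 0.019 to 0.062 (Eif4e+/-) and -0.438 to -0.052 (WT), so the pairing rests on the labels. Genotype was tested on 4 group means. The transformation test over both genotypes was run on simulated data without embryo or genotype effects, and the other comparisons were not checked in this way.

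The 45 genes, the lists and the tests were chosen with earlier results of these data known, so no pattern here is independent support for them. Values were given for pathway genes called for transformation, for any called in a genotype comparison or interaction, and otherwise for the 3 smallest p there. Of each further list, up to the 4 called genes with the largest difference were named. Genes named beyond that (those not called, and members of short lists) were chosen after their values were seen. The cultures of a group came from separate embryos, and each embryo gave a transformed and an untransformed culture. Alternatives covered the filter, the probe set choice, quantile normalization within a fraction, limma's trend and robust options, the block, each embryo left out and the 3 polysomal arrays with a median correlation under 0.9 over the kept genes left out. Promoter sequences came from RefSeq.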

Additional observations from a re-analysis of the deposited data

Results flagged for a closer look

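Among the 45 pathway genes, 1 in total RNA and 1 in polysomal RNA moved in opposite directions in the genotypes, in every embryo, against 2.14% and 1.44% of all genes, so the count is near the background. Chrdl1, a secreted BMP antagonist, differed between transformed and untransformed cells in total RNA by 0.16, 0.61 and 0.25 in the Eif4e+/- embryos, against -0.15, -0.07 and -0.14 in the WT embryos. The interaction was 0.46 and did not pass in limma (adjusted p = 0.9164), and Chrdl1 lay below the 40th percentile on all 12 total RNA arrays. Acvr1b, a type I activin receptor, differed in polysomal RNA by -0.39, -0.67 and -0.24 in the Eif4e+/- embryos, against 0.36, 0.19 and 0.46 in the WT embryos. Its interaction was -0.77 and did not pass in limma (adjusted p = 0.9996).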

How the results depend on the processing

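No result reversed under any alternative run. In total RNA the count of 23 pathway genes changed by transformation lay between 21 and 25 in every alternative, 24 without the replicate block and 21 to 24 with an embryo left out. Leaving out an embryo gave 10 to 18 in WT cells and 5 to 18 in Eif4e+/- cells. In polysomal RNA it gave 3 to 16 over both genotypes, 0 to 8 in WT cells and 0 to 8 in Eif4e+/- cells, and for TE 1 to 10, 0 to 5 and 0 to 4. Without the replicate block, polysomal RNA gave 11 over both genotypes, 5 in WT cells and 5 in Eif4e+/- cells, and TE gave 9, 3 and 2. Without the weakly correlated polysomal arrays, TE gave 1 over both genotypes and 0 in WT cells, and polysomal RNA gave 4 in Eif4e+/- cells. Quantile normalization gave 3 TE calls in WT cells and 3 in Eif4e+/- cells, and limma's trend and robust options gave 2 and 2. Genotype counts in transformed cells were 0 to 1 with an embryo left out, in total and in polysomal RNA, and all other genotype and interaction counts were 0 in every alternative, also with embryo as a random replicate block. With embryo number as a replicate block across genotypes, chosen after seeing the data, the count was 0. Deviations from the group means were also correlated between the Eif4e+/- and WT cultures of the same number. In total RNA the values were 0.347, -0.017 and -0.326 in transformed cells and 0.484, -0.077 and 0.094 in untransformed cells. The value for number 1 was thus positive in both states. The main genotype test did not pair the genotypes by number, since their embryos differ. The cause of the changes in these counts between runs was not tested, and each removal also leaves fewer samples. Counts of all genes called in each run are not given here, so these changes do not show a trait particular to the pathway genes. In polysomal RNA 12 of the 45 genes were not above the 40th percentile on every array, which limits what polysomal RNA and TE show for them, and in total RNA 10 were not.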

Other observations

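Some pathway genes ranged widely among the transformed cultures. Grem1, a secreted BMP antagonist, measured 10.08, 11.27 and 10.83 in transformed Eif4e+/- cells and 8.67, 11.55 and 9.62 in transformed WT cells in total RNA. Bmp2, also in total RNA, was highest in the transformed cultures of Eif4e+/- embryo 2 (10.63) and WT embryo 2 (11.21), as was Grem1. In polysomal RNA the transformed WT embryo 2 culture was the highest of the 12 for both Bmp2 (5.97) and Grem1 (8.21). Id2, a BMP-responsive inhibitor of differentiation, measured 10.66, 8.87 and 9.86 in transformed Eif4e+/- cells and 8.95, 9.29 and 7.92 in transformed WT cells in total RNA.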
